A study of Ovis aries with 10 samples.

Results

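Small GTPases are molecular switches that are active when bound to GTP and inactive when bound to GDP. Guanine nucleotide exchange factors (GEFs) switch them on and GTPase-activating proteins (GAPs) switch them off. Among them, the Rac and Cdc42 switches organise actin, Rab and Arf members direct membrane traffic, and Ras, Rap and Ral members relay growth and adhesion signals. In skeletal muscle these switches take part in myoblast fusion, in the build-up of the contractile cytoskeleton and in the movement of glucose transporters to the surface. The transcripts described here are not the messenger RNAs of these genes but their circular RNAs (circRNAs), in which a downstream splice site is joined back to an upstream one, and which are counted by the reads that cross this back-splice junction.

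The members are the 244 circRNAs, of 8721 listed in the series, whose host gene symbol begins with ARHGAP, ARHGEF, DOCK, RAB, RABGAP, RAPGEF, RASA, RALGAP, TBC1D, SIPA1L, ARFGEF, ACAP, ASAP, DENND or RRAS, with a digit required after DOCK, RAB and RASA. ARHGAP10 was left out of this rule. They come from 83 host genes, of 3435 in the series, and hold 13847 of 445393 junction reads, or 3.11%. Beyond an entry in a library of the series, the rule used gene names and no measured value. The list was chosen with earlier results of these data known.

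The 10 libraries were 5 from ovariectomized and 5 from sham-operated small-tailed Han sheep. The labels name the longissimus dorsi, a muscle of the back, as tissue, and also name primary myoblasts as cell type, with a culture medium and an estradiol series but no dose for any sample. Neither the age of the animals nor a separate animal for each library is stated, so each p-value reflects only how these samples scatter, which may be technical. No transgene, deletion or other agent is named for either group.

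Depth was 39045 to 67061 junction reads per library in the ovariectomized group and 35731 to 49887 in the sham group, and ovariectomized replicate 5 was the deepest. Between 94 and 112 members were listed per ovariectomized library and between 82 and 104 per sham library. Of 18 genes that mark muscle fibres, 14 hosted circRNAs, with 17850 reads in all, and MYH7, TRDN, CACNA1S and PYGM hosted none. Of 8 myoblast and satellite cell markers only DES and NCAM1 hosted any, with 5 reads in all, none was found for PAX7, MYF5, MYOD1, MYOG, CDH15 or MEGF10, and none of 10 proliferation genes hosted any. Endothelial, smooth muscle and fibroblast markers hosted 203, 562 and 133 reads, adipocyte and immune markers 28 and 5, and Schwann cell and blood markers none. A gene that hosts no listed circRNA may still be expressed. The summed normalized reads of the fibre markers ranged from 1103 to 1936 in ovariectomized libraries and from 1710 to 2418 in sham libraries. Their part in the differences below was not tested, and in such bulk samples fewer cells of a type and less RNA per cell cannot be told apart.

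The members were built much like other circRNAs of the series. Of the 244, 234 were exonic and 10 intronic. Their median spliced length was 300.0 bases, against 291.0 bases in the rest of the series, and their median genomic span was 10628 bases, against 7609. CircRNAs with 1 listed block made up 19.3% of members and 23.6% of the rest. This count includes some intronic circRNAs, and 1 block need not mean a single exon. The TBC1D1 circRNA, with 1 block, spans 68998 bases against a spliced length of 140 bases. Of the 211 members that share their host with another listed circRNA, 128 (60.7%) also shared a splice site with one, against 69.4% of such circRNAs in the rest of the series. Detection was sparse: 31 members (12.7%) were listed in all 10 libraries, against 9.14% of the rest, and 87 (35.7%) in a single library, against 37.5%. None of these differences was tested.

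Reads were concentrated in few hosts. RALGAPA1, RAB23, DOCK1, TBC1D12 and DENND4A together held 6886 member reads, or 49.7%, whereas 23 hosts had fewer than 10 reads over all libraries. By role, the 15 Rab GTPase hosts carried 25 circRNAs with 3668 reads (26.5% of member reads), and the 2 Ral GAP hosts carried 12 with 2451 reads (17.7%). The DOCK exchange factors followed with 41 circRNAs of 8 hosts and 1787 reads, and the Rab GAPs of the TBC1D and RABGAP families with 47 of 15 hosts and 1377 reads. The 6 smaller classes, led by the Ras and Rap regulators with 976 reads and ending with RAB3GAP1 with 434, made up the remainder.

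Members as a whole took a similar share of circRNA reads in both groups. The share was 3.26% ± 0.323 of junction reads in ovariectomized libraries and 2.97% ± 0.468 in sham libraries (SD, n = 5 each). The difference of 0.297 percentage points was smaller than the SD of the sham group, and was 0.153 without sham replicate 3, 0.189 without ovariectomized replicate 4 and 0.460 without sham replicate 4. On the normalized scale, where junction reads are divided by the scaled library size, members summed to 1241 to 1504 reads in ovariectomized libraries and 1222 to 1497 in sham libraries, and the ranges overlapped almost fully. Among the roles, the DOCK class held 0.439% ± 0.0772 in ovariectomized and 0.348% ± 0.0678 in sham libraries, and the ARHGEF class 0.0819% ± 0.0202 in ovariectomized and 0.133% ± 0.0423 in sham libraries.

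**Figure D1:**
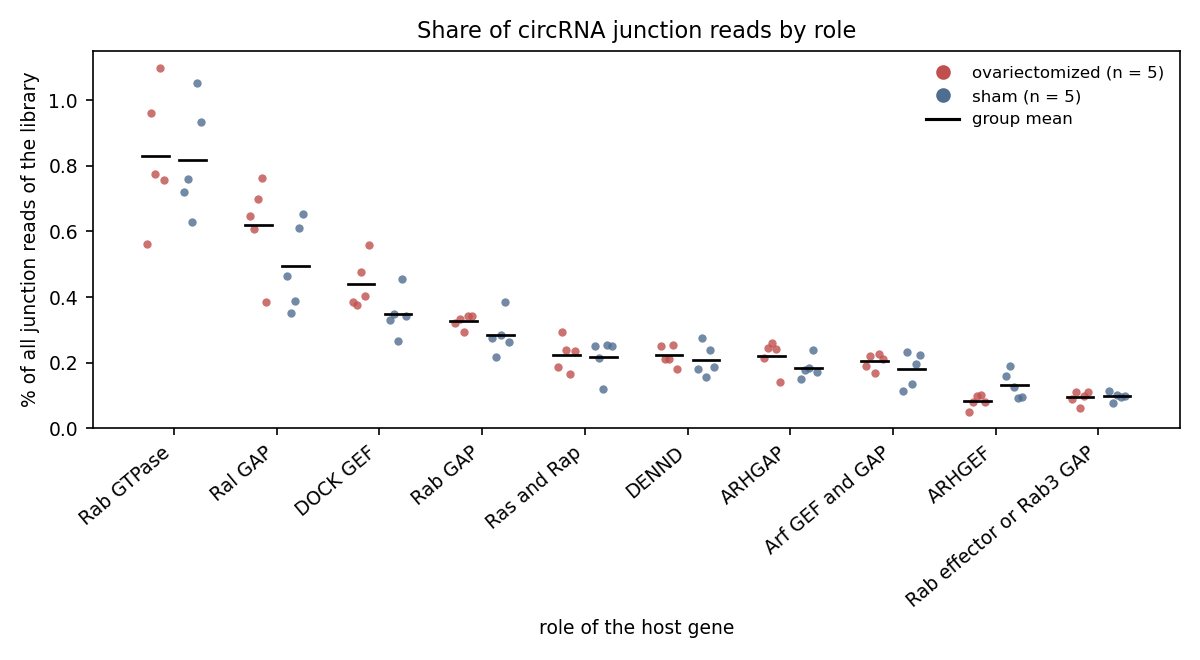
Share of all junction reads of a library, in percent, held by the circRNAs of each role class of hosts, with 1 point per library and a line at the group mean (ovariectomized left, sham right, n = 5 each). The groups overlap in each class shown; the Rab GTPase class is highest at 0.831% in ovariectomized and 0.819% in sham libraries.

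The main comparison asks which circRNAs differ between samples of ovariectomized and sham-operated sheep. As no estradiol dose is given for any sample, their hormone exposure is not known from the labels. No member passed the test for a difference. Of the 244 members, 26 reached enough reads to be tested (at least 5 libraries with 10 or more reads scaled to the median library), and these 26 hold 70.4% of member reads and come from 18 hosts. With limma voom over the 738 circRNAs tested in the whole table, 0 members had an adjusted p under 0.05, as did 0.0% of all tested circRNAs, whose smallest adjusted p was 0.208. The adjusted p of members ran from 0.781 to 0.941. At an unadjusted p under 0.05, 3 members (11.5%) were lower in ovariectomized libraries and 0 higher, against a background of 5.69% of all tested circRNAs, of which 4.47% were lower and 1.22% higher. The 3 are circRNAs of RAB12, ARHGEF7 and ARHGEF6. That count was 1 of 24 without ovariectomized replicate 5, against 32 of all 679 tested. Without sham replicate 3 it was 1 of 26, against 38 of all 702.

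Of the estimates for the 26, 13 were above and 13 below 0, with a median log2 fold change (ovariectomized over sham) of 0.02, against −0.04 over all 738. That split moved with the scaling: by library totals alone 18 were above and 8 below 0, with a median of 0.18 over members and 0.14 over all. Their median standard error was 0.35 on the log2 scale, against 0.42 over all. The normalized reads of the 2 groups overlapped for each of the 26, while 1.36% of all tested circRNAs had groups that did not overlap.

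**Figure D2:**
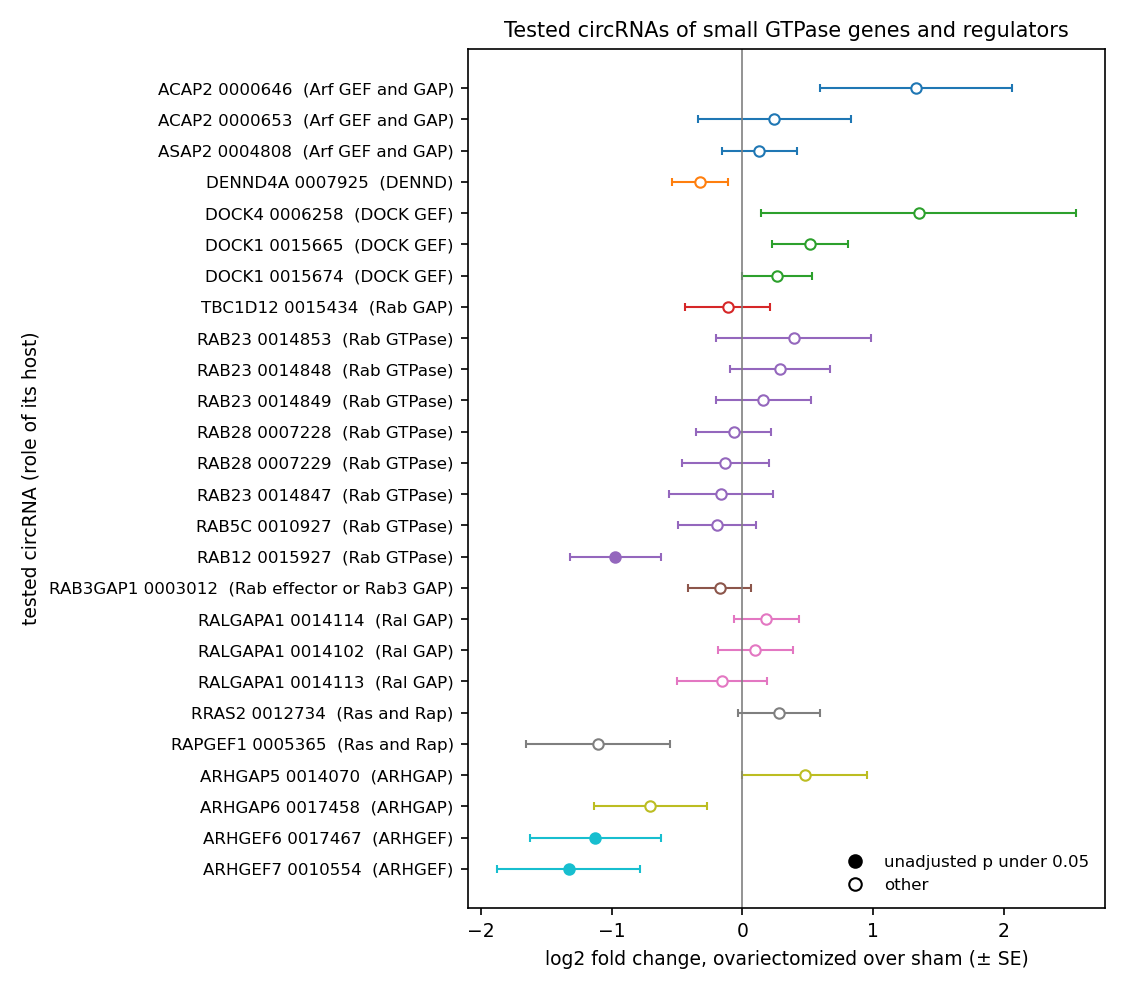
Log2 fold change of normalized junction reads (x axis, ovariectomized over sham) with its standard error for the 26 tested members, sorted by the role of the host; filled points have an unadjusted p under 0.05. The filled points are RAB12 at −0.97, ARHGEF6 at −1.12 and ARHGEF7 at −1.33, all lower in ovariectomized libraries, and none of them passed the adjusted threshold.

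Among the Rab GTPases, which mark the membranes of the endosomal and secretory pathway, RAB12 showed the member difference with the smallest p. RAB12 acts in endosome and lysosome traffic, and its only listed circRNA, novel_circ_0015927 (chr23:41585003-41593368, plus strand, spliced length 395 bases), had 14.5, 20.3, 19.0, 26.0 and 23.6 normalized reads in ovariectomized replicates 1 to 5, against 15.6, 44.5, 50.7, 49.2 and 57.6 in sham replicates 1 to 5. In all, 4 sham libraries lay above all ovariectomized ones and sham replicate 1 lay among them. The means were 20.7 ± 4.42 in ovariectomized and 43.5 ± 16.3 in sham libraries (SD, n = 5 each), and the log2 fold change was −0.97 ± 0.35 (SE, unadjusted p = 0.0134, limma adjusted p = 0.781). Over the alternative settings and left-out libraries the estimate stayed between −1.27 and −0.81, and its adjusted p between 0.176 and 0.919.

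RAB23, a GTPase that restrains Hedgehog signalling in mouse, had the second-largest read total, 2067, spread over 6 circRNAs in 18.6 kb of chromosome 20. Of the 6, 4 shared the upstream end of the leading one, and 3 its downstream end. The leading circRNA, novel_circ_0014847 (chr20:3167976-3184604, plus strand, 639 bases in 5 exon blocks), varied widely within both groups. It had 50.6, 124, 106, 194 and 54.5 normalized reads in ovariectomized replicates 1 to 5, against 88.5, 57.7, 88.4, 186 and 127 in sham replicates 1 to 5. The groups overlapped throughout, at −0.16 ± 0.40 (limma adjusted p = 0.939). It took 49.2% ± 10.5 of the RAB23 junction reads in ovariectomized libraries and 53.1% ± 14.8 in sham libraries. The remaining tested RAB23 circRNAs, novel_circ_0014849, novel_circ_0014848 and novel_circ_0014853, had log2 fold changes of 0.16, 0.29 and 0.39, each with a standard error of 0.36 or more. Of these, novel_circ_0014849 had 88.5 reads in ovariectomized replicate 2 and 25.3 to 42.1 in the other 4 ovariectomized libraries.

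Other Rab hosts stayed within their spread. RAB5C, a GTPase of early endosomes, gave a single circRNA from 1 exon of 481 bases (chr11:41992837-41993317, minus strand), at 40.9 ± 5.66 reads in ovariectomized and 49.8 ± 20.8 in sham libraries. RAB28 gave novel_circ_0007228, which spans 87362 bases, the longest of the members, and novel_circ_0007229, which lies inside it. These had 24.7 ± 4.14 and 20.1 ± 7.98 reads in ovariectomized libraries, against 26.1 ± 7.72 and 21.3 ± 4.13 in sham libraries. RAB11A, a GTPase of recycling endosomes, hosted the circRNA with the most reads outside the test, 114, which is more than the 104 of the least read tested member, because too few of its libraries reached 10 reads.

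The regulators of Rab proteins divide into GAPs with a TBC domain, DENN-domain GEFs and the Rab3 GAP. TBC1D12 gave 695 reads, of which 81.2% fell on novel_circ_0015434 (chr22:15519802-15526494, plus strand, 325 bases). It had 68.2, 54.9, 64.4, 52.9 and 31.0 normalized reads in ovariectomized replicates 1 to 5, against 82.0, 34.9, 31.3, 84.7 and 65.6 in sham replicates 1 to 5. The sham libraries spread over a wider range that encloses nearly all ovariectomized ones (−0.11 ± 0.33, limma adjusted p = 0.941). TBC1D31 and TBC1D19 were tested as host sums only, at −0.11 ± 0.48 and 0.91 ± 0.92. Leaving out single libraries moved the TBC1D19 estimate between −0.22 and 1.41. TBC1D1 and TBC1D4, Rab GAPs that control glucose transporter traffic in muscle, gave 9 and 12 junction reads over all libraries, too few to compare.

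DENND4A, a GEF for Rab10, gave 611 reads, of which 84.0% fell on novel_circ_0007925 (chr7:12553903-12554320, minus strand). This circRNA varied little between ovariectomized libraries, with 47.5, 46.8, 43.3, 47.7 and 40.9 normalized reads in ovariectomized replicates 1 to 5, against 52.1, 71.0, 45.3, 66.9 and 50.5 in sham replicates 1 to 5. Here 4 sham libraries lay above all ovariectomized ones, and sham replicate 3 lay within them. This gave a log2 fold change of −0.32 ± 0.22 (limma adjusted p = 0.836). DENND1B, a GEF for Rab35, summed to 21.5 ± 7.60 reads over its 7 circRNAs in ovariectomized libraries and 18.6 ± 9.87 in sham libraries. RAB3GAP1, the catalytic subunit of the Rab3 GAP, had 37.4 ± 7.75 reads on its leading circRNA in ovariectomized and 42.3 ± 5.63 in sham libraries, a difference of −0.18 ± 0.24.

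The Ral GAP complex, which inactivates RalA and RalB, contributed the most read circRNA of all members through its catalytic subunit RALGAPA1. This host gave 10 circRNAs with 2443 reads along 156 kb of chromosome 18, and 6 of the 10 shared 1 upstream end. The leading circRNA, novel_circ_0014114 (chr18:43683287-43690632, minus strand, 263 bases in 4 exon blocks), had 155, 133, 152, 181 and 97.9 normalized reads in ovariectomized replicates 1 to 5, against 134, 86.6, 85.1, 143 and 192 in sham replicates 1 to 5. The groups overlapped, and the highest value was in a sham library. Means of 144 ± 30.9 in ovariectomized and 128 ± 44.4 in sham libraries gave a log2 fold change of 0.18 ± 0.25 (limma adjusted p = 0.928). Its share of RALGAPA1 reads was 56.6% ± 3.23 in ovariectomized and 55.6% ± 8.67 in sham libraries. In sham libraries it ran from 40.7% to 63.1%.

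The second RALGAPA1 circRNA, novel_circ_0014102 (chr18:43610396-43618362), lies further downstream in the gene and shares no end with the first. It had 79.6, 77.3, 83.4, 75.4 and 35.3 reads in ovariectomized replicates 1 to 5, against 48.2, 43.3, 79.8, 68.9 and 68.7 in sham replicates 1 to 5. The other 4 ovariectomized libraries were close together above replicate 5. Its log2 fold change was 0.10 ± 0.28 with all libraries and 0.39 without ovariectomized replicate 5. RALGAPB, the partner subunit of the complex, gave only 8 reads.

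**Figure D3:**
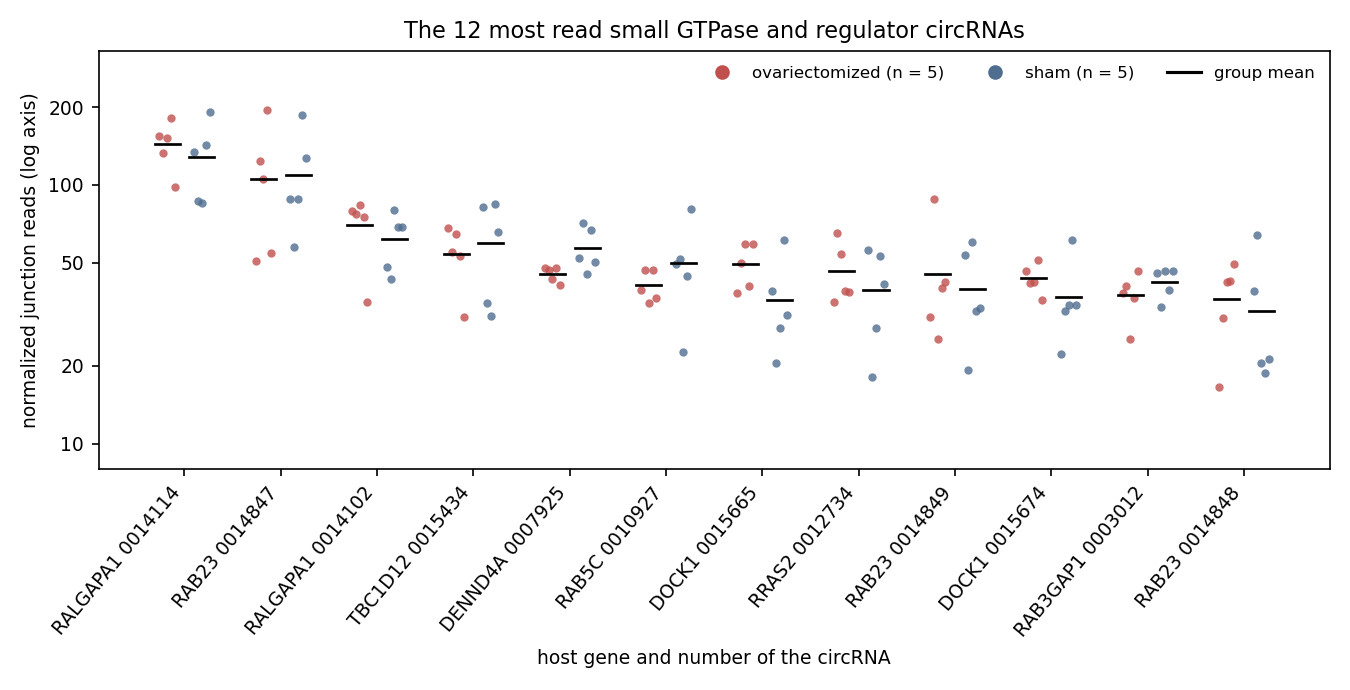
Normalized junction reads on a log axis for the 12 members with the most reads, named by host and circRNA number, with 1 point per library and a line at the group mean (ovariectomized left, sham right, n = 5 each). The groups overlap for all 12; means run from 144 in ovariectomized and 128 in sham libraries for the leading RALGAPA1 circRNA to 36.3 in ovariectomized and 32.6 in sham libraries for RAB23 novel_circ_0014848.

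**Figure D4:**
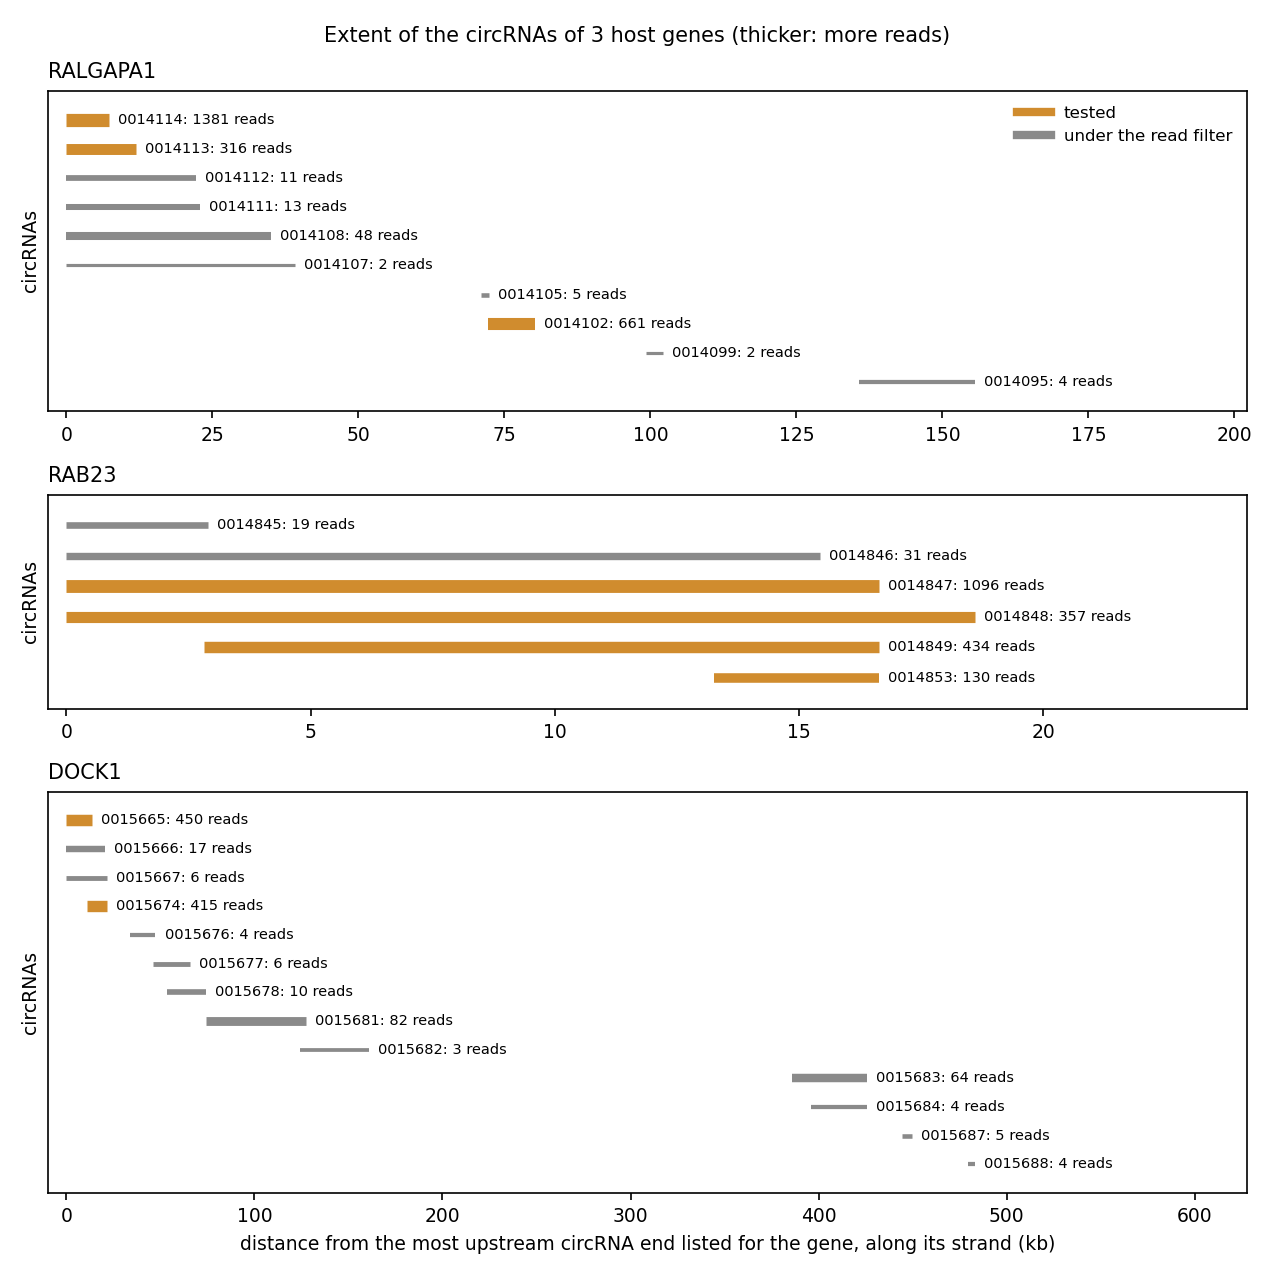
Extent of each listed circRNA of RALGAPA1, RAB23 and DOCK1 in kilobases from the most upstream end, along the gene's strand, with its junction reads over the 10 libraries; thicker bars have more reads and orange bars were tested. The leading circRNA of each gene begins at that upstream end, with 1381 reads for RALGAPA1, 1096 for RAB23 and 450 for DOCK1.

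Among the Ras and Rap regulators, RRAS2, a Ras-related GTPase, led with 558 reads. Its leading circRNA novel_circ_0012734 (chr15:38177639-38179015, plus strand, 498 bases) had 35.1, 65.1, 53.8, 39.0 and 38.4 normalized reads in ovariectomized replicates 1 to 5, against 56.0, 18.0, 28.0, 53.2 and 41.4 in sham replicates 1 to 5. The groups overlapped (0.28 ± 0.31, limma adjusted p = 0.879). RAPGEF1, a GEF that activates Rap1, had lower estimates: novel_circ_0005365 (chr3:5157180-5167493, plus strand, 590 bases) had 12.4, 3.05, 4.22, 6.07 and 8.06 reads in ovariectomized replicates 1 to 5, against 15.6, 12.03, 17.2, 11.8 and 19.2 in sham replicates 1 to 5. Only ovariectomized replicate 1 reached into the sham range. The estimate was −1.11 ± 0.55 (unadjusted p = 0.0621, limma adjusted p = 0.781).

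Both tested circRNAs of ARHGEF exchange factors had an unadjusted p under 0.05, as did the RAB12 circRNA and no other of the 26 members in that fit. ARHGEF7 and ARHGEF6, known as beta-PIX and alpha-PIX, are exchange factors for Rac and Cdc42 that bind PAK kinases. The ARHGEF7 circRNA novel_circ_0010554 (chr10:84835302-84849032, plus strand, 305 bases) had 4.13, 17.3, 14.8, 16.5 and 3.10 normalized reads in ovariectomized replicates 1 to 5, against 13.0, 25.3, 32.3, 12.8 and 14.1 in sham replicates 1 to 5. Ovariectomized replicates 1 and 5 were below all sham libraries and the other 3 lay within the sham range. The log2 fold change was −1.33 ± 0.54 (unadjusted p = 0.027, limma adjusted p = 0.781), and −0.55 without ovariectomized replicate 5.

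The ARHGEF6 circRNA novel_circ_0017467 (chrX:98478507-98497707, plus strand, 385 bases) was the least read of the tested members. It had 5.17, 6.10, 14.8, 11.3 and 3.72 reads in ovariectomized replicates 1 to 5, against 14.3, 16.8, 14.0, 11.8 and 10.1 in sham replicates 1 to 5. In 3 ovariectomized libraries the value was below all sham libraries, and in replicates 3 and 4 it was not. This gave a log2 fold change of −1.12 ± 0.50 (unadjusted p = 0.0392, limma adjusted p = 0.781), and −0.50 without ovariectomized replicate 5.

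Summing over circRNAs of a host gave the same direction for ARHGEF7. Its 10 circRNAs summed to 11.4, 26.4, 17.9, 24.3 and 22.9 normalized reads in ovariectomized replicates 1 to 5, against 46.9, 65.0, 53.9, 20.7 and 30.3 in sham replicates 1 to 5. The values of 4 sham libraries lay above all ovariectomized ones. The log2 fold change of the sum was −0.92 ± 0.35 (limma adjusted p = 0.713), and it ran from −1.15 to −0.72 over left-out libraries. In the fit of host sums, 25 member hosts were tested and 0 had an adjusted p under 0.05, as did 0.0% of the 753 hosts tested in all. RAB12 and ARHGEF7 were lower at an unadjusted p under 0.05, that is 2 of 25 (8.00%), against 5.98% of all hosts in either direction with 4.38% lower and 1.59% higher. Over all hosts that was 12 higher and 33 lower, against 34 higher and 14 lower by library totals alone and 24 higher and 23 lower without ovariectomized replicate 5. Of the 25 estimates 9 were above and 16 below 0, with a median of −0.07, against −0.02 over all hosts. By library totals alone 14 were above and 11 below 0, with a median of 0.07, against 0.11 over all hosts.

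Among the ARHGAP genes, whose products are GAPs, ARHGAP5 gave 265 reads over 5 circRNAs, 4 of which shared the downstream end of the leading one. The leading novel_circ_0014070 (chr18:40307164-40332301, plus strand) had 13.4 ± 3.85 reads in ovariectomized and 9.48 ± 2.49 in sham libraries (0.47 ± 0.48, limma adjusted p = 0.851). A neighbour whose listed start differs by 3 bases, novel_circ_0014071, had 58 reads in all, and the files do not show whether the pair are separate molecules. ARHGAP6 gave a single-exon circRNA, novel_circ_0017458 (chrX:9325319-9325575, minus strand, 257 bases), with 22.7, 16.3, 21.1, 9.54 and 4.96 reads in ovariectomized replicates 1 to 5, against 11.7, 14.4, 25.9, 22.6 and 21.2 in sham replicates 1 to 5. The groups overlapped over most of their range. Its log2 fold change of −0.71 ± 0.43 (limma adjusted p = 0.828) was −0.19 without ovariectomized replicate 5. ARHGAP12 and ARHGAP29 were tested as host sums, at −0.51 ± 0.68 and 0.85 ± 0.88.

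The DOCK proteins are GEFs for Rac and Cdc42, and DOCK1 is needed for myoblast fusion in mouse. DOCK1 carried 13 circRNAs, more than any other member host, along 483 kb of chromosome 22. Both tested ones lie at the upstream end. The first, novel_circ_0015665 (chr22:45917559-45931099, plus strand, 278 bases), had 38.2, 49.8, 59.1, 40.7 and 58.9 reads in ovariectomized replicates 1 to 5, against 39.0, 20.5, 28.0, 61.0 and 31.3 in sham replicates 1 to 5. The values of 3 sham libraries lay below all ovariectomized ones, and sham replicate 4 was the highest of all. The estimate was 0.52 ± 0.29 (limma adjusted p = 0.781). The second, novel_circ_0015674 (chr22:45928476-45939007), gave 0.27 ± 0.27.

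The host sum of DOCK1 was 110, 98.7, 128, 112 and 122 reads in ovariectomized replicates 1 to 5, against 79.4, 71.0, 87.3, 137 and 80.8 in sham replicates 1 to 5. In the sum 4 sham libraries were below every ovariectomized library, and sham replicate 4 was again the highest of all. The log2 fold change of the sum was 0.38 ± 0.22 (limma adjusted p = 0.781), and 0.56 without sham replicate 4. DOCK4, a GEF for Rac and Rap, carried 10 circRNAs, of which novel_circ_0006258 (chr4:57932322-57954029, plus strand) had 5.17, 17.3, 20.1, 12.1 and 33.5 reads in ovariectomized replicates 1 to 5, against 20.8, 0, 9.70, 4.92 and 12.1 in sham replicates 1 to 5. It was not listed in sham replicate 2, and its estimate of 1.35 ± 1.20 (limma adjusted p = 0.847) was 0.75 without that library.

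Of the Arf regulators, ACAP2, a GAP for Arf6, had the highest estimates. Its circRNA novel_circ_0000646 (chr1:193072665-193075605, plus strand, 243 bases) had 15.5, 20.3, 23.2, 20.8 and 14.9 reads in ovariectomized replicates 1 to 5, against 2.60, 7.22, 4.31, 4.92 and 23.2 in sham replicates 1 to 5. As many as 4 sham libraries lay below all ovariectomized ones, and sham replicate 5 lay at their upper end. The log2 fold change was 1.33 ± 0.73 (unadjusted p = 0.0904, limma adjusted p = 0.781), and 1.90 without sham replicate 5. The other tested ACAP2 circRNA, novel_circ_0000653, which shares no end with it, gave 0.24 ± 0.58. ASAP2, an Arf GAP, had 26.9 ± 7.00 reads on its leading circRNA in ovariectomized and 24.1 ± 6.37 in sham libraries.

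The comparison of junction with non-junction reads at the same circRNA sets 2 kinds of read from 1 library against each other, and so does not depend on scaling between libraries. What the authors counted as a non-junction read is not given in the sources used here. Per 100 non-junction reads, the tested members had a median of 18.2 junction reads, against 15.6 over all circRNAs fitted. Most circRNAs had higher ratios in ovariectomized libraries: 73.7% of the 735 fitted and 20 of the 26 members, with a median log2 difference (ovariectomized minus sham) of 0.29 over all and 0.34 over members. The median over all was 0.09 without ovariectomized replicate 5, the library with the highest overall ratio. No member had a limma adjusted p under 0.05, against 3 circRNAs, or 0.408%, of all. At an unadjusted p under 0.05, 2 members were higher and 1 lower (11.5% of 26), against 9.12% of all, with 8.30% higher and 0.816% lower.

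The RRAS2 circRNA had 25.2, 34.6, 37.2, 24.3 and 48.4 junction reads per 100 non-junction reads in ovariectomized replicates 1 to 5, against 16.7, 6.61, 12.7, 34.8 and 7.39 in sham replicates 1 to 5. The ratios of 4 sham libraries lay below all ovariectomized ones, and sham replicate 4 lay among them. The log2 difference was 1.21 ± 0.39 (limma adjusted p = 0.321), or 0.92 above the median of all circRNAs. Without sham replicate 4 it was 1.65 with a limma adjusted p of 0.0363, the only setting under the threshold in a range from 0.0363 to 0.718. RALGAPA1 novel_circ_0014102 had 104 ± 27.8 junction per 100 non-junction reads in ovariectomized and 57.7 ± 15.7 in sham libraries (0.70 ± 0.28, limma adjusted p = 0.443). RAB12 went the other way from most circRNAs, with 1.64 ± 0.740 in ovariectomized and 3.11 ± 1.51 in sham libraries (−0.94 ± 0.37, limma adjusted p = 0.443). For RAPGEF1 novel_circ_0005365 the values were 2.98 ± 1.73 in ovariectomized and 6.26 ± 2.45 in sham libraries (−0.88 ± 0.52, limma adjusted p = 0.548). For ARHGEF6 the ratio differed by −0.07 ± 0.51.

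**Figure D5:**
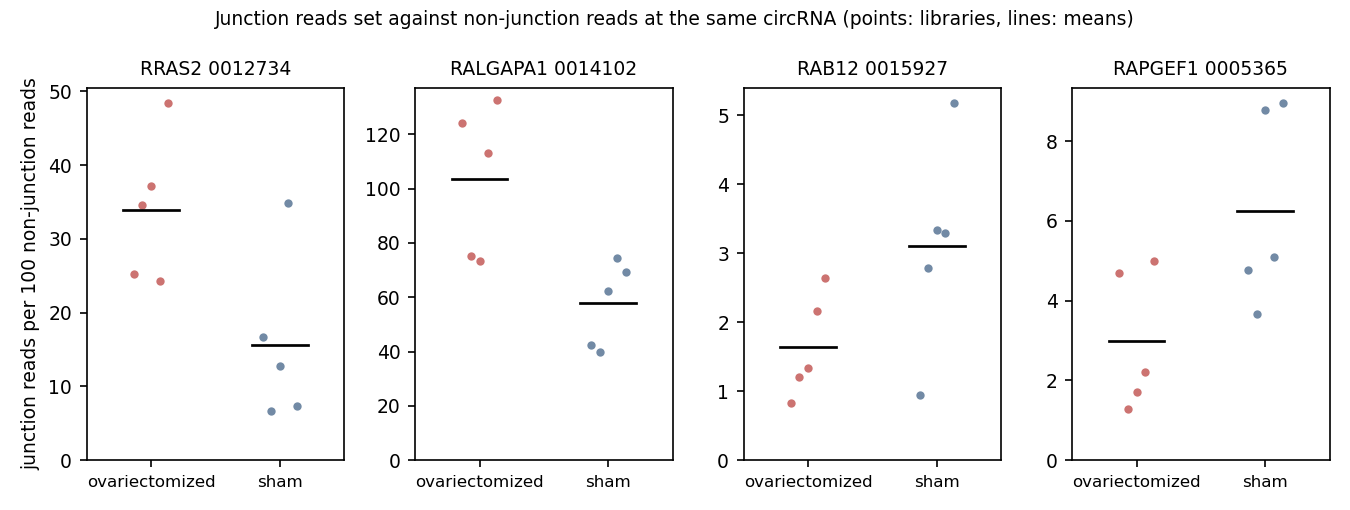
Junction reads per 100 non-junction reads at the circRNAs of RRAS2, RALGAPA1, RAB12 and RAPGEF1, with 1 point per library and a line at the group mean (ovariectomized left, sham right, n = 5 each; each panel has its own axis from 0). RRAS2 and RALGAPA1 are higher in most ovariectomized libraries, with means of 34.0 in ovariectomized and 15.7 in sham libraries for RRAS2, and RAB12 and RAPGEF1 are lower.

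Most members were too sparse for the fit: 62 were listed in at least 5 libraries and 156 in fewer. With two-sided exact permutation tests of normalized reads, 7 of the 62 (11.3%) had an exact p under 0.05, 3 higher and 4 lower in ovariectomized libraries, against 5.17% of all 1952 such circRNAs. None passed adjustment over the 1952 (smallest adjusted exact p 0.896). The higher 3 were circRNAs of DOCK1, ARHGAP29 and ARHGAP28, and the lower 4 of DOCK9, ARFGEF1, ARHGAP5 and ASAP2. DOCK9 is a GEF for Cdc42, and its novel_circ_0010530 was the only one of the 62 whose groups did not overlap, against 0.717% of all such circRNAs, with 0.794 ± 1.09 reads in ovariectomized and 4.05 ± 2.46 in sham libraries. This exact p, 0.00794, is the smallest that 5 against 5 libraries can give. It rests on 23 reads in all. Before scaling the counts overlap, with up to 3 reads in ovariectomized libraries and as few as 2 in sham libraries. The DOCK9 host sum also overlapped between the groups, with an exact permutation p of 0.111.

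Another DOCK1 circRNA, novel_circ_0015683 (chr22:46303609-46343230, plus strand, 388 bases), lies far downstream of the leading pair. It had 11.4, 5.09, 10.6, 6.07 and 11.2 normalized reads in ovariectomized replicates 1 to 5, against 0, 0, 5.39, 3.94 and 4.04 in sham replicates 1 to 5. All ovariectomized libraries listed it, and only replicate 2 fell under a sham value (exact permutation p = 0.0159). Its share of DOCK1 reads was 7.67% ± 2.30 in ovariectomized and 2.81% ± 2.82 in sham libraries. The ARHGAP5 circRNA novel_circ_0014072 ran the other way, listed in 1 ovariectomized library and all 5 sham libraries (1.22 ± 2.73 in ovariectomized and 7.11 ± 3.55 in sham libraries, exact permutation p = 0.0317), while the leading ARHGAP5 circRNA had the opposite sign.

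In host sums, 2 of 25 member hosts (8.00%) had an exact p under 0.05, against 4.24% of all. The normalized sums of these 2 member hosts under the filter also did not overlap between groups. That held for 1.35% of all 1037 hosts under the filter that were listed in at least 5 libraries. TBC1D32, a TBC-domain protein needed for ciliary Hedgehog signalling in mouse, summed to 5.17, 14.2, 13.7, 6.94 and 24.2 normalized reads over its 7 circRNAs in ovariectomized replicates 1 to 5, against 0, 0, 4.31, 2.95 and 4.04 in sham replicates 1 to 5. ARFGEF1, a GEF for Arf proteins at the Golgi, summed to 3.10, 4.07, 4.22, 6.07 and 1.86 in ovariectomized replicates 1 to 5, against 6.51, 8.42, 7.54, 13.8 and 8.08 in sham replicates 1 to 5. On the normalized scale TBC1D32 was thus higher, and ARFGEF1 lower, in each ovariectomized library than in any sham library. Before scaling the ARFGEF1 counts overlap, with 7 reads in ovariectomized replicate 4 and 5 in sham replicate 1. Both hosts had an exact permutation p of 0.00794, the smallest possible, and an adjusted exact p of 0.588 over the 1037 hosts. They were singled out after their values were seen, and rest on 90 and 62 reads in all.

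Other hosts with 4 or more circRNAs stayed under the filter also as sums. RABGAP1, a GAP for Rab proteins, split 85 reads over 8 circRNAs, with summed means of 7.06 ± 3.56 normalized reads in ovariectomized and 9.87 ± 5.47 in sham libraries. DOCK10 gave 9.07 ± 3.47 in ovariectomized and 7.56 ± 4.51 in sham libraries, and ARHGAP28 gave 9.11 ± 3.36 in ovariectomized and 4.20 ± 6.00 in sham libraries. In each of these the ranges of the groups overlapped. RAPGEF6, a GEF for Rap proteins, had 3.16 ± 3.60 in ovariectomized and 6.93 ± 5.73 in sham libraries, and DOCK5 had 16 reads in all.

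In the authors' deposited table, 6 of the 244 members (2.46%) had a p under 0.05, against 1.35% of the 8721 circRNAs, and 0 passed the authors' adjusted p, against 0.0115% of all. The authors' deposited table gives p-values of 0.00281 for RAB12, 0.0257 for RAPGEF1, 0.0277 for ACAP2 novel_circ_0000646, 0.0298 for ARHGAP5 novel_circ_0014072, 0.0326 for DOCK1 novel_circ_0015683 and 0.0347 for DENND4A novel_circ_0007926. Each of these has an authors' adjusted p of 0.966 in the authors' deposited table. The last, novel_circ_0007926 of DENND4A, was listed in 4 ovariectomized libraries and no sham library, with 22 reads in all. ARHGEF7 and ARHGEF6 are not among these 6.

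Other genes of the same pathways, outside the name rule, gave no call either. Of 148 such GTPases, GEFs, GAPs, chaperones and effectors, 75 hosted circRNAs with 7514 reads, and 22 host sums were tested. None passed the limma adjusted threshold, and none had an unadjusted p under 0.05, against 5.98% of all 753 host sums, with 13 estimates above and 9 below 0 and a median of 0.08. The smallest p values belonged to GBF1, an Arf GEF of the Golgi, at 1.45 ± 1.00, and MYO9A, a myosin with a GAP domain, at 0.34 ± 0.26 (limma adjusted p = 0.806 for both). The GBF1 estimate was 0.43 without sham replicate 5.

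Over the 10 libraries, the tested circRNAs of the series whose normalized reads ranked most like those of the leading RALGAPA1 circRNA were novel_circ_0004951 of AEBP2 (Spearman correlation 0.903), novel_circ_0003578 of AGTPBP1 (0.867) and novel_circ_0015050 of ILRUN (0.842). These are descriptions over libraries that share depth and scaling, the 3 having been picked as the highest.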

How the data were processed

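The authors deposited whole-number counts of junction and non-junction reads per circRNA, packed in comma-separated lists with sample names, and genomic and spliced lengths (lengths enter as a score with no fixed range in the deposited file). HISAT2 is named in the submitters' processing notes, and a directional RNA library kit per the labels' protocols. Not given in the sources used here are the circRNA caller, the build, the annotation and what a non-junction read is. The other deposited table holds, per the file headers, the authors' group means of a normalized signal. Its log2 fold changes, with sham on top, and its p-values, raw and adjusted, are also as deposited by the authors. The smallest listed count was 2 reads, and a library without an entry was entered as 0 reads. Entries under 10 further sample names, which match none of the samples described here, were not used.

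Groups came from the sample titles. Counts were unpacked and tested with limma voom (limma 3.58.1, R 4.3.3, statmod 1.5.0), with group as the only term, robust variances, trimmed mean of M values scaling (30% of log ratios and 5% of abundances trimmed) and Benjamini-Hochberg adjustment over all features tested, at 0.05. Tested features had at least 5 libraries with 10 reads scaled to the median library and at least 15 reads in total. The ratio fit used limma on log2 of junction over non-junction reads with 0.5 reads added to each, weighted by counting variance, with entries in at least 3 libraries of each group. Features under the filter and listed in at least 5 libraries were tested by exact permutation, adjusted over all such features. Normalized reads are junction reads divided by each library's scaling factor, whose geometric mean is set to 1. Intervals and standard errors cover the spread between libraries, not the molecules behind PCR copies.

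Members and gene lists were chosen with earlier results of these data known, so their counts are read against the background of all features and get no test of their own. Named circRNAs are the 12 most read, the 5 tested with the smallest p in each direction, the 2 leading hosts of each role, hosts with 4 or more circRNAs (1 of them is not reported here) and the extremes of the ratio fit, and a few singled out later as stated. Coordinates follow the deposited file, made 1-based. The chromosome of each sequence was read from its host genes in a RefSeq gene table (ARS-UI_Ramb_v3.0), which placed 8431 of 8432 circRNAs alike, and all 244 members lay inside their host's span there. The fits were tested on simulated data. Alternatives covered scaling, filters, variance models, a replicate block and each library left out.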

Additional observations from a re-analysis of the deposited data

Results flagged for a closer look

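Of 116 groups of 5 values checked, 5 held a library far from the other 4 by Dixon's criterion, where chance gives about 1 in 20. The causes were not tested. The ACAP2 circRNA novel_circ_0000646 had 23.2 normalized reads in sham replicate 5 and 2.60 to 7.22 in the other sham libraries. RALGAPA1 novel_circ_0014102 had 35.3 in ovariectomized replicate 5 and 75.4 to 83.4 in the others of its group. RAB23 novel_circ_0014849 had 88.5 in ovariectomized replicate 2 and 25.3 to 42.1 in the others. The DOCK1 sum was 136.8 in sham replicate 4 and 71.0 to 87.3 in the other sham libraries. The RAPGEF1 sum was 20.7 in ovariectomized replicate 1 and 3.05 to 8.06 in the others.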

How the results depend on the processing

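The count of called circRNAs, 0, was 4 with a filter of 2 reads in 5 libraries, 14 with no filter and 3 with the replicate block, and 0 to 0 over left-out libraries; none of these 3 settings called a member. Members with an unadjusted p under 0.05 numbered 3 in the report, all lower. With the filter of 2 reads in 5 libraries they were 10 of 88, 5 higher and 5 lower, against 214 of all 2690 circRNAs tested. With no filter they were 21 of 244, 10 higher and 11 lower, against 535 of all 8721. They were 1 of 26 with the replicate block and 1 of 26 with sample quality weights, against 47 and 38 of all 738. Over left-out libraries they were 1 to 4, against 26 to 46 of all circRNAs tested. Called host sums, 0 in the report, numbered 2 and 7 under the looser filters, 1 with library totals alone, 1 with the block and 0 to 1 over left-out libraries, with 0 members among them. Called ratios, 3 in the report, numbered 1 without weights, 11 with the block and 0 to 6 over left-out libraries. The block called 1 member ratio, that of RALGAPA1 novel_circ_0014114. Correlations of same-numbered libraries ran from −0.110 to 0.185, and those of differently numbered ones from −0.201 to 0.171. Whether replicate numbers pair the samples cannot be told from these values, because the 2 ranges overlap. With the block the estimates of ACAP2 novel_circ_0000646, ARHGEF7 novel_circ_0010554, ARHGEF6 novel_circ_0017467 and the GBF1 sum were 0.42, −0.64, −0.47 and 0.70. The difference in member share ran from 0.153 to 0.460 percentage points over left-out libraries, and was 0.0379 over circRNAs listed in all 10.

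Scaling by library totals put the median log2 fold change of all circRNAs at 0.14, against −0.04, and the unadjusted calls at 27 higher and 12 lower, against 9 higher and 33 lower; without ovariectomized replicate 5 they were 20 higher and 12 lower. The member estimates were 16 above and 10 below 0 with quality weights, against 13 and 13. Of 51 named results, 9 changed sign under a setting other than a left-out library and 13 under a left-out library, none of them called. With library totals RAB23 novel_circ_0014847 was at 0.00077, TBC1D12 novel_circ_0015434 at 0.0632, and the sums of ASAP2, DENND4A, RAB23 and RAB28 at 0.0695, 0.0751, 0.125 and 0.0699. With quality weights the first 2 were at 0.0525 and 0.0291. The RAB23 sum was at 0.00824 with median-of-ratios scaling. With the block, the sums of ARHGAP12, RAB23 and TBC1D12 were at 0.0453, 0.0333 and −0.0046. With no filter, RALGAPA1 novel_circ_0014102 was at −0.0593 and the TBC1D12 sum at −0.0267. Over left-out libraries the ranges that cross 0 were −0.41 to 0.0259 for RAB5C, −0.0114 to 0.39 for RALGAPA1 novel_circ_0014102, −0.42 to 0.0939 and −0.0618 to 0.38 for RAB23 novel_circ_0014847 and novel_circ_0014849, and −0.28 to 0.13 for TBC1D12. For sums they were −0.82 to 0.36 for ARHGAP12, −0.12 to 0.0033 for ASAP2, −0.18 to 0.0470 for DENND4A, −0.15 to 0.22 for RAB23, −0.16 to 0.0432 for RAB28, −0.18 to 0.20 for TBC1D12, −0.22 to 1.41 for TBC1D19 and −0.49 to 0.17 for TBC1D31. The causes were not tested.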
